A study of Arabidopsis thaliana with 16 samples.

Results

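The interaction between loss of TCX5 and TCX6 and loss of DDM1 was examined in seedlings of Arabidopsis thaliana, using the 8 seedling libraries of a series of 16. The 4 groups of 2 libraries were wild type (WT), tcx5-/-tcx6-/- (tcx5/6), ddm1-/- (ddm1) and the triple mutant tcx5-/-tcx6-/-ddm1-/- (tcx5/6 ddm1). All were seedlings aged 2 weeks that grew on MS plates at 22 °C under 16 h of light and 8 h of dark, with RNA from 1 g of tissue. The alleles and the hour of harvest, not given in the sources used here, remain unknown. Nor do the labels say whether replicates were separate plantings, so the p-values cover the spread between these samples, which may be technical.

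TCX5 and TCX6 are CXC-domain proteins, the plant relatives of animal LIN54, and act within the DREAM complex, which binds promoters of cell cycle and chromatin genes and represses them. DDM1 is a SWI2/SNF2 chromatin remodeller that lets DNA methyltransferases reach heterochromatin, and transposons and some genes lose methylation and silencing without it. Combining the mutations asks whether the tcx5/6 difference is the same with and without DDM1. On a log scale, an additive outcome means that tcx5/6 changes a gene by the same ratio in both backgrounds.

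Each gene therefore had 2 tcx5/6 differences, tcx5/6 minus WT (the WT background) and tcx5/6 ddm1 minus ddm1 (the ddm1 background), in log2(signal + 1). Signal is the deposited value, a read count per gene adjusted by the authors to a common library size and not divided by gene length. The interaction is the difference in the ddm1 background minus that in the WT background. It was tested with limma across all genes and called at a Benjamini-Hochberg adjusted p under 0.05. Values after ± are standard errors (SE) of that fit, and every group has 2 libraries. Of the 32833 genes in the table, 25016 passed a filter on low values and were tested. A called gene was reversed where both differences were called with opposite signs. Otherwise it was more than additive where the difference was larger in size in the ddm1 background, and less than additive where it was smaller. A gene counted as less than additive may thus be unchanged, or turned slightly the other way, in the ddm1 background. A gene counted as more than additive may likewise be unchanged, or differ with the opposite sign, in the WT background.

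The libraries held 31.1 to 38.8 M of signal. These totals follow the authors' adjustment, so depth is unknown and no counting interval was computed. Replicates of a group differed by a median absolute log2 of 0.0888 for WT, 0.0841 for tcx5/6, 0.128 for ddm1 and 0.158 for the triple mutant. Below a signal of 12 there were 139 to 164 distinct values in WT and tcx5/6 libraries and 403 to 466 in ddm1 and tcx5/6 ddm1 libraries. Genes above 0 numbered 24047 in both WT libraries and 23951 in both tcx5/6 libraries. They numbered 23727 and 23208 in the ddm1 pair, and 23909 and 23906 in the tcx5/6 ddm1 pair. Whether replicates of WT and of tcx5/6 were measured independently at low signal was not tested, so their spread there may be understated. The libraries were thus of 2 kinds, which cannot be told apart from the ddm1 background. Each tcx5/6 difference lies within 1 kind, whereas the interaction compares across them.

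The mutated genes did not all read as their labels name them. TCX5 (AT4G29000) read 486 and 497 in the WT pair, 240.2 and 267 with tcx5/6, 684 and 576 with ddm1, and 250.2 and 174 with tcx5/6 ddm1. Its tcx5/6 libraries lay below their matched controls in both backgrounds without overlap, and the interaction was -0.63 ± 0.26 (adjusted p = 0.14). TCX6 (AT2G20110) read 163 and 152 in the WT pair, 783 and 759.7 with tcx5/6, 97.3 and 143 with ddm1, and 731 and 834 with tcx5/6 ddm1, higher in both groups labelled tcx5/6 than in their controls, with an interaction of 0.43 ± 0.26 (adjusted p = 0.30). DDM1 (AT5G66750) read 709 and 648 in the WT pair, 1925 and 2061 with tcx5/6, 119 and 145 with ddm1, and 569 and 654 with tcx5/6 ddm1. Its level was low in ddm1 alone, and in tcx5/6 ddm1 it lay near that of WT, so every interaction below also compares libraries with different DDM1 signal. Whether these transcripts make protein was not tested. The interaction at DDM1 itself was 0.65 ± 0.18 (adjusted p = 0.045). Leaving out WT replicate 1 or 2 ended that call (adjusted p = 0.16 and 0.098), as did leaving out tcx5/6 replicate 1 or 2 (0.16 and 0.13), ddm1 replicate 1 (0.079) or tcx5/6 ddm1 replicate 2 (0.090), or a pseudocount of 0.1 (0.050) or 10 (0.055).

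The tcx5/6 difference depended on the ddm1 background in 3632 of 25016 genes, 14.5% of those tested. The interaction was positive in 1252 genes (5% of those tested) and negative in 2380 (9.51%). More than additive genes numbered 2974, of which 1007 were higher and 1967 lower in tcx5/6 ddm1 than in ddm1. In 2684 of them the difference was called in the ddm1 background alone, and in 268 in both. The estimates of the 2 differences had opposite signs in 1597 of the 2974, without both being called. Less than additive genes numbered 393, of which 218 were higher and 175 lower in tcx5/6 than in WT, and 253 were called in the WT background alone. In 311 of the 393 the signs were opposite, again without both differences being called. Reversed genes numbered 265 (1.06%), of which 195 were higher and 70 lower in tcx5/6 than in WT. In the WT background 7.26% of genes were higher and 4.35% lower in tcx5/6, and in the ddm1 background 17.7% were higher and 21.6% lower. The fit shared its spread estimate across all groups, although replicates differed more in ddm1 and the triple mutant. Such sharing makes calls harder to reach in the WT background and easier in the ddm1 background. Its part in these shares, in the sorting and in the list counts below was not tested. Both differences were called in 2198 genes, with the same sign in 1933 and opposite signs in the 265 reversed genes. Across genes, which are not independent replicates, the 2 differences had a Pearson r of 0.35.

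Leaving out a library changes the spread estimate that all groups share, and replicates differed least in WT and tcx5/6. How far this set the counts that follow was not tested. The count of interactions fell most without a WT or tcx5/6 library. It was 1410 without WT replicate 1, 1534 without WT replicate 2, 1559 without tcx5/6 replicate 1 and 1280 without tcx5/6 replicate 2, against 2679 to 4121 without a ddm1 or tcx5/6 ddm1 library. The sorting moved with it, since without 1 of those 4 libraries 77 to 102 genes were reversed, 1049 to 1287 more than additive and 154 to 178 less than additive. Of the 3632 genes, 1658 had an interaction of at least 1 in absolute log2. On the linear scale, 3557 of the 3632 kept the sign of the interaction and 75 did not. At the threshold, AT1G27210 (-0.39) and AT3G12340 (0.72) lay just inside, with ARAD2 (0.78) and AT3G15240 (-1.07) just outside. Called genes made up 14.0% to 15.2% of those tested on each of the 5 chromosomes.

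**Figure D1:**
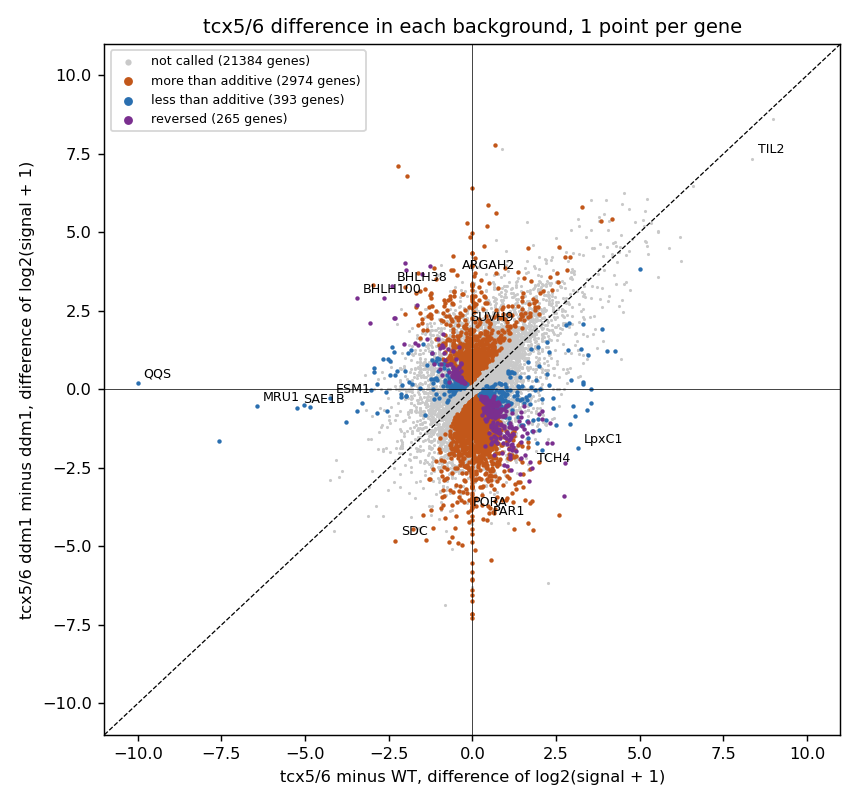
Each point is a gene, with its tcx5/6 difference in the WT background on the x axis and in the ddm1 background on the y axis, both as differences of log2(signal + 1). Points on the dashed diagonal are additive, and colours mark the 2974 more than additive, 393 less than additive and 265 reversed genes. QQS lies far to the left at a y value near 0, and BHLH38 and BHLH100 lie in the upper left quadrant.

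Iron homeostasis held the most reversed genes of any list examined, 9 of 15, against 1.06% of all genes tested. Plants short of iron switch on group Ib bHLH transcription factors, which pair with FIT (FRU) to induce the reductase FRO2 and the transporter IRT1, while ferritins store iron when it is plentiful. In the WT background 8 of the 15 genes were lower and 2 higher in tcx5/6, against 4.35% and 7.26% of all genes. In the ddm1 background 10 were higher and 2 lower, against 17.7% and 21.6%, and the interaction was positive in 10 and negative in 2, against 5% and 9.51%. All 15 genes were tested. The median tcx5/6 difference was -0.41 in the WT background and 1.33 in the ddm1 background, where the medians over all genes were 0.00 and -0.02. This list was drawn up with the fall of BHLH100 in tcx5/6 already known, so its count is a description. Without WT replicate 1 or tcx5/6 replicate 2, 5 of its genes were reversed, and without any other library 6 to 9. Of the 9, only BHLH38, BHLH39 and BHLH100 had both differences at least 1 in absolute log2, so with that minimum the count was 3.

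Among the regulators, BHLH100 (AT2G41240) read 481 and 298 in the WT pair, 33.0 and 34.9 with tcx5/6, 157 and 172 with ddm1, and 1241 and 1241 with tcx5/6 ddm1. Its tcx5/6 libraries were the lowest of the 8 and its tcx5/6 ddm1 libraries the highest, and no 2 groups overlapped. The tcx5/6 difference was -3.44 in the WT background and 2.91 in the ddm1 background, an interaction of 6.35 ± 0.31 (limma adjusted p = 5.8e-05). An additive outcome would have put tcx5/6 ddm1 at 14.2. BHLH38 (AT3G56970) read 306 and 149 in the WT pair, 32.4 and 47.5 with tcx5/6, 84.7 and 89.3 with ddm1, and 846 and 866 with tcx5/6 ddm1, in the same order of groups and without overlap (interaction 5.70 ± 0.46, adjusted p = 0.00047). BHLH39 (AT3G56980), its neighbour on chromosome 3, read 361 and 261 in the WT pair, 40.7 and 58.1 with tcx5/6, 158 and 163 with ddm1, and 1257 and 1153 with tcx5/6 ddm1, again with tcx5/6 lowest and tcx5/6 ddm1 highest (interaction 5.54 ± 0.30, adjusted p = 8.9e-05). BHLH101, the other member of the group, read 219 and 184 in the WT pair, 68.0 and 87.2 with tcx5/6, 137 and 183 with ddm1, and 113 and 157 with tcx5/6 ddm1. It was lower in tcx5/6 than in WT (difference -1.37), while ddm1 and tcx5/6 ddm1 overlapped, and its interaction was 1.12 ± 0.36 (adjusted p = 0.072). The handling of reads that match close copies such as BHLH38 and BHLH39, not given in the sources used here, limits how far their values can be kept apart.

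Among regulators outside that group, PYE and BTS were reversed, though not with both differences held to at least 1 in absolute log2. PYE (AT3G47640), a bHLH repressor of iron genes, read 828 and 805 in the WT pair, 414 and 468 with tcx5/6, 274 and 335 with ddm1, and 768 and 762 with tcx5/6 ddm1 (interaction 2.22 ± 0.17, adjusted p = 0.00036). The tcx5/6 and ddm1 libraries were low, and tcx5/6 ddm1 lay just below WT. BTS (AT3G18290), a ubiquitin ligase that senses iron and restrains the response, read 9025 and 7793 in the WT pair, 4803 and 5372 with tcx5/6, 4597 and 5321 with ddm1, and 11653 and 12734 with tcx5/6 ddm1, with tcx5/6 ddm1 above all other libraries (interaction 2.02 ± 0.15, adjusted p = 0.00033). The gene for FIT, listed as FRU, read 129 and 155 in the WT pair, 211 and 184 with tcx5/6, 95.9 and 37.4 with ddm1, and 64.4 and 97.3 with tcx5/6 ddm1, and its interaction of -0.08 ± 0.59 was not called (adjusted p = 0.95).

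Of the uptake and transport genes, OPT3, FRO2, FRO3 and IRT1 were higher in tcx5/6 ddm1 than in any other group. OPT3 (AT4G16370), a transporter that loads iron into the phloem, read 7432 and 7024 in the WT pair, 5431 and 5416 with tcx5/6, 4823 and 5628 with ddm1, and 12918 and 13479 with tcx5/6 ddm1, reversed with an interaction of 1.75 ± 0.12 (adjusted p = 0.00019). FRO3, a mitochondrial ferric reductase, was also reversed (1.45 ± 0.12, adjusted p = 0.00053). FRO2, the root surface reductase, read 101 and 91.3 in the WT pair, 112 and 99.8 with tcx5/6, 94.0 and 84.0 with ddm1, and 330.0 and 395 with tcx5/6 ddm1, where the first 3 groups lay close together and only tcx5/6 ddm1 stood above (interaction 1.87 ± 0.27, adjusted p = 0.0045). NAS4, a nicotianamine synthase, read 613 and 596 in the WT pair, 721 and 798 with tcx5/6, 132 and 85.9 with ddm1, and 543 and 743 with tcx5/6 ddm1, with ddm1 low and tcx5/6 ddm1 spanning the WT values (interaction 2.24 ± 0.30, adjusted p = 0.0033). IRT1 read 113 and 164 in the WT pair, 259.7 and 150.5 with tcx5/6, 219 and 175 with ddm1, and 689.8 and 1015 with tcx5/6 ddm1 and was the least stable of these calls (interaction 1.56 ± 0.43, adjusted p = 0.048). It passed neither without WT replicate 1 or 2 (adjusted p = 0.074 and 0.16) nor without tcx5/6 replicate 2 (0.15), ddm1 replicate 1 or 2 (0.064 and 0.12) or tcx5/6 ddm1 replicate 2 (0.11), nor with a pseudocount of 0.1 (0.061). Without any 1 WT or tcx5/6 library OPT3 was called but not as reversed, and the same held for FRO3 without WT replicate 1 or either tcx5/6 replicate.

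Ferritin genes, which encode iron storage shells, went the opposite way. FER1 (AT5G01600) read 2993 and 3238 in the WT pair, 5454 and 4966 with tcx5/6, 8519 and 5820.2 with ddm1, and 2608 and 1819 with tcx5/6 ddm1. It was higher in tcx5/6 than in WT and lower in tcx5/6 ddm1 than in ddm1, without overlap in either background (interaction -2.43 ± 0.28, adjusted p = 0.0018). FER4 (AT2G40300) read 458 and 522 in the WT pair, 740.0 and 828 with tcx5/6, 1476 and 1251 with ddm1, and 467 and 410.0 with tcx5/6 ddm1, with the same pattern (interaction -2.31 ± 0.17, adjusted p = 0.00035). FER1 was not sorted as reversed without any 1 WT or tcx5/6 library, with a pseudocount of 0.1 or after median of ratios rescaling, nor FER4 without WT replicate 1 or tcx5/6 replicate 2. FER3 had an interaction of -0.73 ± 0.24 that was not called (adjusted p = 0.076).

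**Figure D2:**
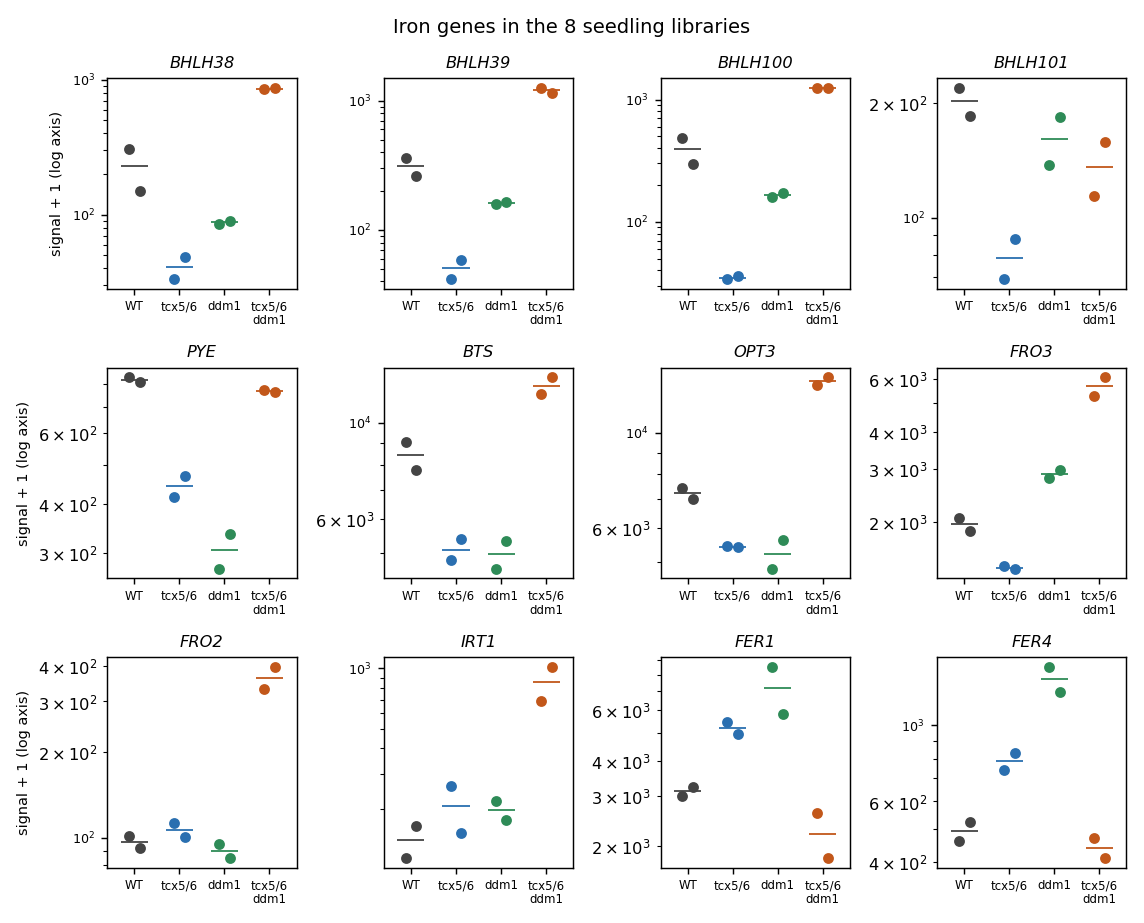
Each panel is an iron gene, with signal + 1 on a log y axis and the 4 groups on the x axis; points are the 2 libraries of a group and lines their mean. BHLH38, BHLH39 and BHLH100 are lowest in tcx5/6 and highest in tcx5/6 ddm1, and FER1 and FER4 are lowest in WT or tcx5/6 ddm1.

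Stretches upstream of 5 of these genes are shown because bHLH proteins of this network bind E-box and G-box letters. The G-box letters CACGTG, a palindrome that reads the same on both strands, occurred within 250 bases upstream of 6 of the 15 iron genes (40%) and of 6.82% of the 25015 tested genes with a promoter read. The 6 were BHLH38, BHLH100, BTS, FER3, FER4 and OPT3. Sequences and coordinates are from the RefSeq TAIR10.1 assembly, written along the gene's strand, with capitals marking the G-box. A match describes the letters and not binding. BHLH38 is on the minus strand at chr3:21085307-21085372, BHLH100 on the minus strand at chr2:17199510-17199575, BTS on the plus strand at chr3:6273790-6273855, OPT3 on the minus strand at chr4:9250386-9250451 and FER4 on the minus strand at chr2:16833328-16833393. The 3 G-boxes upstream of BTS were the most in the list, and its stretch holds 2 of them, the downstream one in lower case.
BHLH38: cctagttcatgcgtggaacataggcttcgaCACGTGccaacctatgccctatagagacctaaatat
BHLH100: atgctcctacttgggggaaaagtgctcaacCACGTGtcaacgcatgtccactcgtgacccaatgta
BTS: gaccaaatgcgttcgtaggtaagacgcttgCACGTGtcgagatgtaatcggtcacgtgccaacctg
OPT3: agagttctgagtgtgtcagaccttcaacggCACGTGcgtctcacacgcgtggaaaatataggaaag
FER4: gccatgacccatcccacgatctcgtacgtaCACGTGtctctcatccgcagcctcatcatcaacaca
BHLH38 and FER4, which had interactions of opposite sign, both held the letters. Whether the letters bear on the direction was not tested.

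Most other reversed genes were higher in tcx5/6 than in WT and lower in tcx5/6 ddm1 than in ddm1. TCH4 (AT5G57560), a touch-induced xyloglucan endotransglucosylase that remodels cell walls, read 639 and 584 in the WT pair, 1657 and 2628 with tcx5/6, 9247 and 13936 with ddm1, and 2405 and 1689 with tcx5/6 ddm1. Its 2 ddm1 libraries were far above the rest, and in the ddm1 background the tcx5/6 difference was -2.49 against 1.77 in the WT background (interaction -4.26 ± 0.37, adjusted p = 0.00060). BT5 (AT4G37610), a BTB and TAZ domain scaffold protein, read 417 and 491 in the WT pair, 2061 and 2197 with tcx5/6, 865 and 1489 with ddm1, and 362 and 334 with tcx5/6 ddm1, highest in tcx5/6 and lowest in tcx5/6 ddm1 (interaction -3.93 ± 0.31, adjusted p = 0.00039). WRKY18, a defence transcription factor, was reversed by smaller amounts, and not without tcx5/6 replicate 1, ddm1 replicate 2 or tcx5/6 ddm1 replicate 2 or with both differences held to at least 1 (interaction -1.16 ± 0.17, adjusted p = 0.0041).

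The locus MIR399d (AT2G34202) was reversed at low levels in the WT background. It read 3.41 and 0.197 in the WT pair, 21.1 and 10.2 with tcx5/6, 369.7 and 1144 with ddm1, and 138 and 118 with tcx5/6 ddm1, low in both WT and tcx5/6, while ddm1 stood above all other groups (interaction -5.12 ± 1.02, adjusted p = 0.015). The call was lost without tcx5/6 replicate 1 (adjusted p = 0.061). It was not sorted as reversed without any 1 library other than WT replicate 1 or ddm1 replicate 1, or with a pseudocount of 0.1 or 10. miR399 is induced by phosphate starvation and targets PHO2, which restrains phosphate uptake. What was measured is the precursor transcript. Its mature miRNA, at chr2:14442988-14443008 on the minus strand (RefSeq, TAIR10.1), is shown with the seed, bases 2 to 8, in capitals.
miR399d: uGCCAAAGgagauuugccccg

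Genes raised in the triple mutant beyond the additive level included ARGAH2 (AT4G08870), an arginase. ARGAH2 read 2776 and 3122 in the WT pair, 2029 and 2234 with tcx5/6, 124 and 165 with ddm1, and 1692 and 1946 with tcx5/6 ddm1. It was low in ddm1 alone and returned most of the way to WT in tcx5/6 ddm1 (interaction 4.13 ± 0.20, adjusted p = 5.8e-05). LAS1, a lanosterol synthase, read 18.9 and 23.0 in the WT pair, 14.6 and 8.30 with tcx5/6, 64.3 and 38 with ddm1, and 251 and 392 with tcx5/6 ddm1, highest in tcx5/6 ddm1 without overlap (interaction 3.50 ± 0.59, adjusted p = 0.0076). ADPG1, a polygalacturonase of organ separation, was listed at 0 in WT and read 0.0521 and 1.42 with tcx5/6, 4.4 and 0 with ddm1, and 453 and 568 with tcx5/6 ddm1 (adjusted p = 0.0063). It lost its call with a pseudocount of 0.1 (adjusted p = 0.10). ARI13, a RING-between-RING protein, rose in the ddm1 background (difference 2.33, interaction 3.65 ± 0.74, adjusted p = 0.016) and lost its interaction without WT replicate 1 or 2 (adjusted p = 0.071 and 0.060). UMAMIT25, of a family of amino acid exporters, and ELI3-2, an elicitor-induced alcohol dehydrogenase, had interactions of 3.69 and 3.66 (adjusted p = 0.032 and 0.028). Without single libraries their adjusted p reached 0.12 and 0.10, both on leaving out a WT library (replicate 2 for UMAMIT25, replicate 1 for ELI3-2). UMAMIT25 also lost its call without WT replicate 1 (0.074), tcx5/6 replicate 1 or 2 (0.11 and 0.055), ddm1 replicate 2 (0.062) or tcx5/6 ddm1 replicate 2 (0.080). ELI3-2 also lost it without WT replicate 2 (0.087), ddm1 replicate 1 or 2 (0.069 and 0.064) or tcx5/6 ddm1 replicate 1 or 2 (0.052 and 0.072), or with a pseudocount of 0.1 (0.052).

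DREAM represses DNA replication genes outside S phase. Of 26 such genes, all tested, 20 were higher in tcx5/6 in the WT background and 26 in the ddm1 background, where 7.26% and 17.7% of all genes were. The interaction was positive in 8 (5% over all genes), negative in none (9.51%), and uncalled in 18. The median difference was 0.74 in the WT background and 1.40 in the ddm1 background. TSO2 (AT3G27060), the small subunit of ribonucleotide reductase, read 3211 and 3077 in the WT pair, 5865 and 5778 with tcx5/6, 2117 and 2275 with ddm1, and 12692 and 13491 with tcx5/6 ddm1. Its ddm1 libraries were the lowest and its tcx5/6 ddm1 libraries the highest, with no overlap between groups (interaction 1.69 ± 0.09, adjusted p = 8.9e-05). PCNA1, the sliding clamp of DNA polymerase, had an interaction of 1.09 ± 0.19 (adjusted p = 0.0084), and MCM3, a subunit of the replicative helicase, 0.67 ± 0.12 (adjusted p = 0.0092). TIL2, a catalytic subunit of DNA polymerase epsilon, read 4.60 and 1.91 in WT and 1347 and 1318 with tcx5/6, was listed at 0 in ddm1 and read 132 and 198 with tcx5/6 ddm1, and its interaction was not called (adjusted p = 0.28). With a pseudocount of 10 it was called, at -2.57 (adjusted p = 0.0031), the 1 negative call of the list under that setting. The count of 8 was 3 without WT replicate 1, 4 without tcx5/6 replicate 1 and 3 without tcx5/6 replicate 2.

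E2F letters upstream of 3 helicase subunits are shown because E2F factors recruit DREAM to such sites. The letters TTTCCCGC or TTTGGCGC, on either strand, occurred within 250 bases upstream of 10 of the 26 replication genes and of 0.943% of the 25015 genes. Capitals mark the match. The stretches lie at chr1:16970170-16970213 on the plus strand (MCM2), chr5:18773839-18773906 on the minus strand (MCM3) and chr2:7130730-7130794 on the minus strand (MCM4), in RefSeq TAIR10.1 and along the gene.
MCM2: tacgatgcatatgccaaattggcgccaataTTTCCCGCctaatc
MCM3: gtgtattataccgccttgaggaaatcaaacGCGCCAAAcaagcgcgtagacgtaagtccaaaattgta
MCM4: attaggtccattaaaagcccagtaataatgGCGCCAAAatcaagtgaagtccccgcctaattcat
MCM2, MCM3 and MCM4 were more than additive by 0.69, 0.67 and 0.87. MCM5 and MCM6, helicase subunits whose promoters also hold the letters, had interactions of 0.41 ± 0.13 and 0.27 ± 0.19 that were not called (adjusted p = 0.080 and 0.37). Within this list, 4 of the 10 genes with the letters were called (MCM2, MCM3, MCM4 and ICU2). So were 4 of the 16 without them (TSO2, PCNA1, MCM7 and RNR1). Over the sorted genes, the letters lay upstream of 2.28% of more than additive genes that were higher in the ddm1 background. The share was 0.813% of those that were lower, 1.02% of less than additive and 0.755% of reversed genes. Whether these shares differ from the 0.943% of all genes was not tested. MCM2 lost its call without any 1 WT or tcx5/6 library, ddm1 replicate 2 or tcx5/6 ddm1 replicate 2 (adjusted p up to 0.13), and MCM4 without WT replicate 1 or tcx5/6 replicate 2 (0.055 and 0.057).

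Among DNA methylation genes, 9 of 12 maintenance members were higher in tcx5/6 in the WT background and 10 in the ddm1 background, where 7.26% and 17.7% of all genes were. The interaction was positive in 4 of the 12 (VIM2, VIM3, CMT3 and DDM1), against 5% of all genes, and negative in CMT2, against 9.51%. DDM1 is the locus mutated in ddm1 and tcx5/6 ddm1, so its place in these counts cannot be told apart from the mutation. VIM3 (AT5G39550), which binds hemimethylated DNA for MET1, read 605 and 505 in the WT pair, 1538 and 1519 with tcx5/6, 307 and 269 with ddm1, and 1548 and 1468 with tcx5/6 ddm1, lowest in ddm1 and nearly equal in the 2 groups labelled tcx5/6 (interaction 0.92 ± 0.15, adjusted p = 0.0077). Without any 1 of the 4 WT and tcx5/6 libraries 1 of the 4 positive calls remained, and without a ddm1 library or tcx5/6 ddm1 replicate 1 there were 2. The negative call of CMT2 was lost without any 1 library other than ddm1 replicate 2 (adjusted p up to 0.15), with a pseudocount of 0.1 (0.055) and after median of ratios rescaling (0.053). MET1, the CG methyltransferase, had an interaction of 0.18 ± 0.16 (adjusted p = 0.51). In RNA-directed DNA methylation 2 of 22 genes had a positive interaction, against 5% of all genes, and 4 did without ddm1 replicate 1 and 1 without any 1 WT or tcx5/6 library. SUVH9 (AT4G13460), which recruits RNA polymerase V to methylated DNA, read 1719 and 1801 in the WT pair, 1481 and 1505 with tcx5/6, 225 and 275 with ddm1, and 1028 and 963 with tcx5/6 ddm1. Its WT and tcx5/6 values lay together, while ddm1 was low and tcx5/6 ddm1 lay between (interaction 2.23 ± 0.15, adjusted p = 0.00019). NRPE1, the largest subunit of polymerase V, was the other (0.82 ± 0.18, adjusted p = 0.020), and was not called without 1 of the WT libraries (adjusted p = 0.085 and 0.073 for replicates 1 and 2) or 1 of the tcx5/6 libraries (0.051 and 0.096). ROS1, the demethylase whose transcript tracks methylation, was the only 1 of 6 demethylation genes called (0.71 ± 0.15, adjusted p = 0.018), and lost its call without any 1 of the same 4 libraries (adjusted p = 0.065 to 0.077).

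The other cell cycle and chromatin lists are set against 14.5% of all genes with an interaction, and 7.26% and 17.7% higher in the WT and ddm1 backgrounds. Among 19 genes for DREAM subunits and E2Fs, 15 were higher in the WT background and 14 in the ddm1 background, and only ALY1, a DREAM subunit of the LIN9 type, was called (-0.78 ± 0.15, adjusted p = 0.014), less than additive. It was lost without WT replicate 2 (adjusted p = 0.058) or tcx5/6 replicate 1 or 2 (0.063 and 0.076). Meiosis genes were higher in 15 of 16 cases in each background, by medians of 2.64 and 3.42, and 2 had an interaction, MSH4 and SYN1. In the DNA damage response 12 and 13 of 14 tested genes (15 listed) were higher, and 3 had an interaction, positive in BRCA1 and GMI1 and negative in RAD17. Of 22 G2/M genes 9 and 18 were higher, and only CDKB1;1, a mitotic kinase, had an interaction (0.87 ± 0.16, adjusted p = 0.011). Of 8 histone H3.1 and H2A.W genes 5 were called, of which 4 had positive interactions between 0.41 and 0.59, and HTA12 a negative one. MSH4, SYN1 and RAD17 lost their calls without any 1 WT or tcx5/6 library (adjusted p up to 0.15), MSH4 and SYN1 also without tcx5/6 ddm1 replicate 2 (0.067 and 0.075) and SYN1 without ddm1 replicate 1 (0.058). MSH4 was also lost with a pseudocount of 10 (0.062), and the meiosis list had 4 positive and 2 negative calls without ddm1 replicate 1, and 4 positive and no negative ones without ddm1 replicate 2. BRCA1, GMI1 and CDKB1;1 lost theirs without WT replicate 1 (0.073, 0.056 and 0.056) or tcx5/6 replicate 2 (0.094, 0.058 and 0.066), and BRCA1 also without tcx5/6 replicate 1 (0.057). The 4 positive histone calls fell to 0 without WT replicate 1 or tcx5/6 replicate 1, 1 without WT replicate 2, tcx5/6 replicate 2 or ddm1 replicate 1, and 2 without ddm1 replicate 2 or tcx5/6 ddm1 replicate 1, and HTA12 lost its call without any 1 library other than WT replicate 2 or ddm1 replicate 2 (adjusted p = 0.058 to 0.15).

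Of the shade and light signalling genes, 6 of 9 fell in the ddm1 background, where 21.6% of all genes did. Low red to far-red light induces bHLH and homeobox factors that promote elongation, and some of them restrain it. Of 9 genes, all tested, 1 was higher and 1 lower in the WT background, and the interaction was negative in 7 and positive in none, against 9.51% negative over all genes. PAR1 (AT2G42870), an atypical bHLH that inhibits shade responses, read 427 and 466 in the WT pair, 579.6 and 633 with tcx5/6, 2002 and 1583 with ddm1, and 136 and 69.9 with tcx5/6 ddm1. It was highest in ddm1 and lowest in tcx5/6 ddm1, and an additive outcome would have put the latter at 2417 (interaction -4.62 ± 0.38, adjusted p = 0.00050). HFR1, a related inhibitor, had an interaction of -2.83 ± 0.29 (adjusted p = 0.0011), and XTR7, a cell wall enzyme induced by shade, -2.46 ± 0.27 (adjusted p = 0.0016). HB-2 (AT4G16780), a homeobox gene that rises within minutes of shade, read 397 and 371 in the WT pair, 1196 and 1200.0 with tcx5/6, 4527 and 3358 with ddm1, and 3097 and 3037 with tcx5/6 ddm1. It was higher in tcx5/6 than in WT, by 1.64, while the difference of -0.35 in the ddm1 background was not called (adjusted p = 0.057). HB-2 was thus less than additive (interaction -1.99 ± 0.18, adjusted p = 0.00065). PIL1 did not pass (-0.03 ± 0.28, adjusted p = 0.96).

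Of 13 chlorophyll synthesis genes, 2 were lower in tcx5/6 in the WT background and 11 in the ddm1 background, where 4.35% and 21.6% of all genes were, and 7 had a negative interaction, against 9.51%. PORA (AT5G54190), a light-dependent protochlorophyllide reductase, read 265 and 293 in the WT pair, 248 and 256 with tcx5/6, 2734 and 2602 with ddm1, and 172 and 187 with tcx5/6 ddm1. Only ddm1 stood high, and the other 3 groups lay within 172 to 293 (interaction -3.75 ± 0.15, adjusted p = 3.0e-05). HEMA1, which starts tetrapyrrole synthesis, read 16585 and 19616 in the WT pair, 16647 and 17786 with tcx5/6, 17634 and 15291 with ddm1, and 6495 and 5173 with tcx5/6 ddm1. The 3 other groups overlapped and tcx5/6 ddm1 was low (interaction -1.43 ± 0.18, adjusted p = 0.0026). CHLH, a subunit of magnesium chelatase, had an interaction of -1.17 ± 0.17 (adjusted p = 0.0040). The count of 7 was 3 without WT replicate 1, 4 without WT replicate 2 and 3 without tcx5/6 replicate 2.

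Of 18 photosynthesis genes, 2 were lower in the WT background and 16 in the ddm1 background, against 4.35% and 21.6% of all genes, with median differences of -0.36 and -1.20. The interaction was negative in 11, against 9.51% of all genes. PSAF (AT1G31330), a photosystem I subunit, read 88820.1 and 98084 in the WT pair, 73253 and 77141 with tcx5/6, 109080 and 106454 with ddm1, and 43722 and 37594 with tcx5/6 ddm1, with the lowest values in tcx5/6 ddm1 (interaction -1.10 ± 0.17, adjusted p = 0.0055). LHCB3 and LHCA2, light-harvesting proteins, had interactions of -1.23 ± 0.22 and -0.96 ± 0.18 (adjusted p = 0.0091 and 0.013). Both lost their call without WT replicate 1 (adjusted p = 0.067 and 0.083), WT replicate 2 (0.051 and 0.063), tcx5/6 replicate 1 (0.054 and 0.066) or tcx5/6 replicate 2 (0.067 and 0.086). The count of 11 was 1 without WT replicate 1 or 2 or tcx5/6 replicate 2, 3 without tcx5/6 replicate 1, and 6 without ddm1 replicate 2. RBCS1A, a small subunit of Rubisco, did not pass (-0.10 ± 0.29, adjusted p = 0.86). Less photosynthetic tissue and less RNA per cell cannot be told apart in these bulk samples.

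Circadian clock genes had no positive interaction. Of 14 genes, 1 was higher and 1 lower in the WT background and 1 was higher and 9 lower in the ddm1 background, where 17.7% and 21.6% of all genes were. The interaction was negative in 7, against 9.51% of all genes. LUX (AT3G46640), a component of the evening complex, read 321 and 307 in the WT pair, 420.3 and 422 with tcx5/6, 3867 and 3686 with ddm1, and 2309 and 2576 with tcx5/6 ddm1. It was sorted as reversed, though not without any 1 WT or tcx5/6 library or with both differences held to at least 1, and both ddm1 groups were far above the WT groups (interaction -1.05 ± 0.11, adjusted p = 0.0014). GI, which links the clock to flowering, and RVE4, a morning MYB factor, had interactions of -0.73 ± 0.09 and -1.0 ± 0.14 (adjusted p = 0.0021 and 0.0041). LHY, the morning oscillator gene, read 2761 and 2727 in the WT pair, 3217 and 2979 with tcx5/6, 117 and 92.1 with ddm1, and 157 and 164 with tcx5/6 ddm1, so ddm1 and WT libraries differed far more than the 2 groups within each background (interaction 0.45 ± 0.17, adjusted p = 0.11). The part of the hour of harvest in these differences was not tested. The count of 7 was 3 without tcx5/6 replicate 2. The evening element AAAATATCT, on either strand, occurred upstream of 4 of the 14 genes (LUX, PRR5, TOC1 and BOA) and of 2.39% of all. The LUX stretch, at chr3:17182959-17183027 on the plus strand of RefSeq TAIR10.1, is shown with the element in capitals, and PRR5 at chr5:8358695-8358763 along the minus strand with the reverse complement in capitals.
LUX: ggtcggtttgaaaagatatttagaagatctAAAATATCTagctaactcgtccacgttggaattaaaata
PRR5: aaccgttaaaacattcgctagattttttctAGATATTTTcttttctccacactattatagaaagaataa
PRR5 had an interaction of -1.39 ± 0.28 (adjusted p = 0.016), which was lost without tcx5/6 replicate 2 or ddm1 replicate 2 (adjusted p = 0.072 and 0.051).

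Of 11 cold and abscisic acid response genes, all tested, 1 was lower in tcx5/6 in the WT background, and 8 were lower and 1 higher in the ddm1 background, where 21.6% and 17.7% of all genes were. The interaction was negative in 5, against 9.51% of all genes. KIN2 (AT5G15970), a cold-induced protein, read 1397 and 1462 in the WT pair, 1162 and 1203 with tcx5/6, 23024 and 18806 with ddm1, and 7483 and 8456 with tcx5/6 ddm1, high in both ddm1 groups and lower in the triple mutant of the pair (interaction -1.11 ± 0.14, adjusted p = 0.0027). COR47 and RD29A, dehydration and cold response genes, had interactions of -0.77 ± 0.13 and -0.73 ± 0.13 (adjusted p = 0.0078 and 0.0084). CBF3, a transcription factor that induces such genes, was the 1 positive call (2.04 ± 0.48, adjusted p = 0.027), and lost it without WT replicate 1 or 2, tcx5/6 replicate 1 or 2 or tcx5/6 ddm1 replicate 1 (adjusted p up to 0.11). Of 8 senescence genes, all tested, 1 had a positive and 2 a negative interaction, where 5% and 9.51% of all genes did, and 5 were not called. In the WT background 1 was higher and 2 lower, against 7.26% and 4.35% of all genes. In the ddm1 background 2 were higher and 4 lower, against 17.7% and 21.6%. The negative interactions were those of NYC1, which degrades chlorophyll b, and NAP, a senescence regulator (-0.84 ± 0.10 and -2.01 ± 0.27). SAG13 rose in both backgrounds and read 145 and 107 in the WT pair, 229 and 238 with tcx5/6, 3538 and 2940.4 with ddm1, and 15609.7 and 18825 with tcx5/6 ddm1, more than additive (1.51 ± 0.22, adjusted p = 0.0045).

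Other genes fell in the triple mutant beyond the additive level. FLA6, a fasciclin-like cell surface protein, read 46.6 and 36.9 in the WT pair, 98.1 and 60.4 with tcx5/6, 169 and 211 with ddm1, and 12.9 and 19.1 with tcx5/6 ddm1, lowest in tcx5/6 ddm1 and highest in ddm1 (interaction -4.39 ± 0.49, adjusted p = 0.0016). MRN1, marneral synthase, read 312 and 132 in the WT pair, 416 and 398 with tcx5/6, 1179.6 and 1194 with ddm1, and 55.6 and 190.1 with tcx5/6 ddm1. Its tcx5/6 ddm1 replicates were far apart, and both still lay below ddm1 (interaction -4.52 ± 0.76, adjusted p = 0.0079). NRT2.5, a nitrate transporter of nitrogen starvation, was high in ddm1 alone (128 and 93.6 against at most 9.82 in the other libraries, interaction -4.45 ± 0.83, adjusted p = 0.012). It lost its call without WT replicate 2 or tcx5/6 replicate 1 (both adjusted p = 0.053). EPR1, an extensin-like protein, and SESA3, a seed albumin, were listed at 0 in all groups but ddm1. There they read 935 and 25.0, and 304 and 13.9, so ddm1 replicate 1 set their size. Their calls (adjusted p = 0.040 and 0.046) were lost without any 1 WT or tcx5/6 library (adjusted p = 0.11 to 0.14) or tcx5/6 ddm1 library (0.079 to 0.089), and with a pseudocount of 10 (0.13 and 0.15). The summed signal of the 9 seed storage genes was 3193 in ddm1 replicate 1 and 12.6 to 57.3 in the other 7 libraries. Of the 9 genes 1 had a called interaction, and 7 without ddm1 replicate 2.

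**Figure D3:**
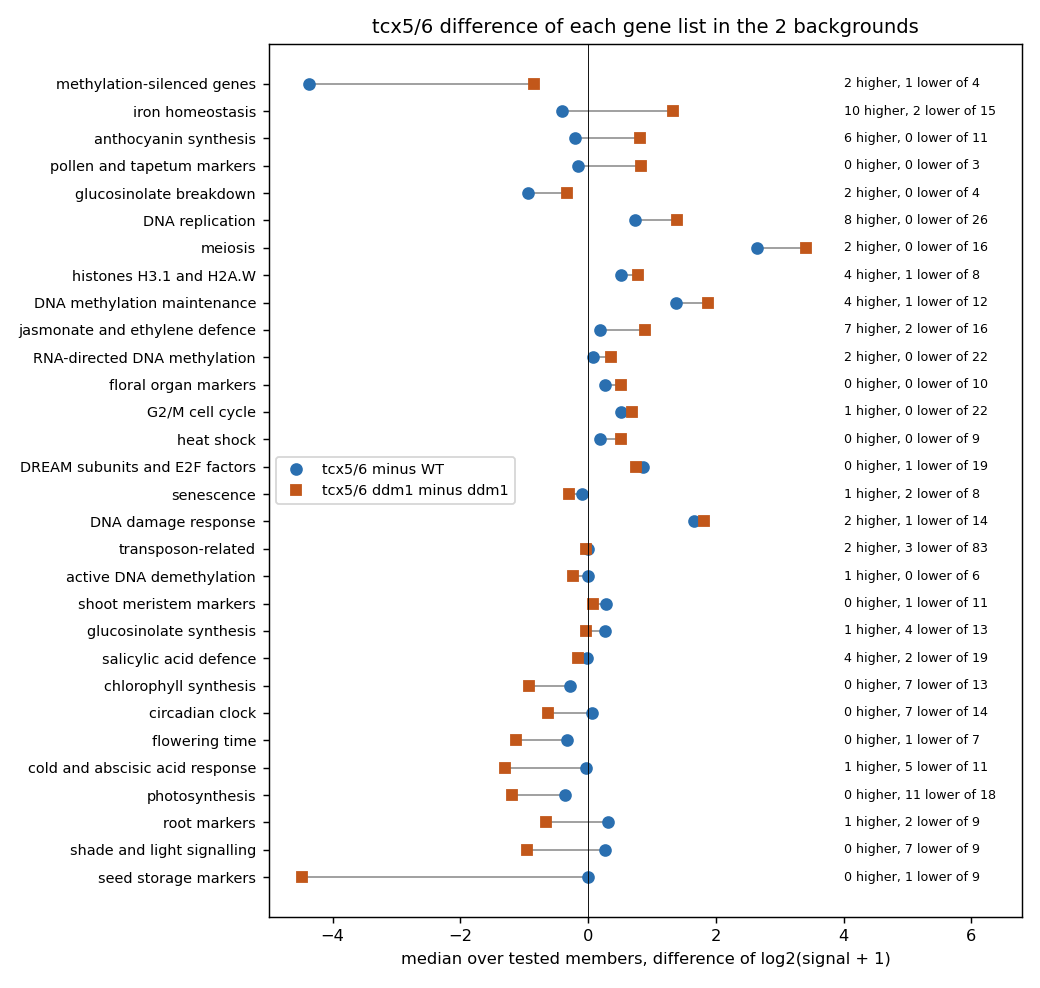
For each gene list the blue point is the median tcx5/6 difference in the WT background and the orange square that in the ddm1 background, as differences of log2(signal + 1), with the count of positive and negative interactions among tested members at the right. Iron homeostasis crosses 0 from -0.41 to 1.33, and photosynthesis goes from -0.36 to -1.20.

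Defence genes were read by hormone pathway. Of 17 jasmonate and ethylene genes 16 were tested, 7 had a positive interaction and 2 a negative one, where 5% and 9.51% of all genes did. LOX2 (AT3G45140), a lipoxygenase of jasmonate synthesis, read 8105 and 9200.2 in the WT pair, 6655 and 6969 with tcx5/6, 21065 and 24229 with ddm1, and 35653 and 44979.7 with tcx5/6 ddm1, with tcx5/6 below WT, a difference that was not called (adjusted p = 0.13), and tcx5/6 ddm1 above ddm1 (interaction 1.17 ± 0.18, adjusted p = 0.0049). JAZ10, a jasmonate-induced repressor, read 103 and 108 in the WT pair, 152 and 123 with tcx5/6, 135 and 147 with ddm1, and 467 and 574 with tcx5/6 ddm1, high in the triple mutant alone (interaction 1.49 ± 0.26, adjusted p = 0.0089), and VSP1, a storage protein of the same response, had an interaction of 1.98 ± 0.35 (adjusted p = 0.0097). ORA59 (AT1G06160), which joins ethylene and jasmonate signals, read 59.2 and 39.2 in the WT pair, 198 and 220.3 with tcx5/6, 565 and 729 with ddm1, and 465 and 587 with tcx5/6 ddm1. It rose in tcx5/6 against WT and overlapped between ddm1 and tcx5/6 ddm1 (interaction -2.39 ± 0.33, adjusted p = 0.0033). PDF1.2, a defensin under its control, had an interaction of -3.03 ± 0.85 (adjusted p = 0.049). Its adjusted p was 0.061 and 0.16 without WT replicate 1 and 2, 0.11 and 0.16 without tcx5/6 replicate 1 and 2, and it was also lost without ddm1 replicate 2 (0.078) or tcx5/6 ddm1 replicate 1 or 2 (0.11 and 0.093), with a pseudocount of 0.1 or 10 (0.064 and 0.068) and after median of ratios rescaling (0.051). The positive count of 7 was 4 and 3 without WT replicate 1 and 2, and 3 and 4 without tcx5/6 replicate 1 and 2, and the negative count was 5 without ddm1 replicate 1 and 1 or 2 without each other library.

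Of 19 salicylic acid genes, all tested, 4 had a positive and 2 a negative interaction, where 5% and 9.51% of all genes did. WRKY70 (AT3G56400), a regulator of that pathway, read 577 and 532 in the WT pair, 588 and 814 with tcx5/6, 4930.1 and 5073 with ddm1, and 2147 and 2731 with tcx5/6 ddm1, high in both ddm1 groups and lower in the triple mutant (interaction -1.37 ± 0.22, adjusted p = 0.0071). PR2, a glucanase of pathogen defence, read 254 and 262 in the WT pair, 231 and 235 with tcx5/6, 4159 and 4122 with ddm1, and 7908 and 13322 with tcx5/6 ddm1, raised above ddm1 in the triple mutant (interaction 1.46 ± 0.28, adjusted p = 0.013). It was not called without WT replicate 1 or 2 or tcx5/6 replicate 2 (adjusted p = 0.051 to 0.055). The positive count of 4 was 0 without WT replicate 1, 1 without WT replicate 2 or either tcx5/6 replicate, and 2 without tcx5/6 ddm1 replicate 2 or with a pseudocount of 0.1, and the negative count was 4 without tcx5/6 ddm1 replicate 2.

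Of the anthocyanin synthesis genes tested, 6 of 11 were higher in tcx5/6 ddm1 than in ddm1, against 17.7% of all genes, and 5 did not pass. The list holds 12 genes. None was called in the WT background, and 6 had a positive interaction, against 5% of all genes. CHS (AT5G13930), the entry enzyme of flavonoid synthesis, read 2646 and 2857 in the WT pair, 2387 and 2497 with tcx5/6, 1769 and 2147 with ddm1, and 4414 and 3733 with tcx5/6 ddm1, with tcx5/6 ddm1 above all other libraries (interaction 1.23 ± 0.16, adjusted p = 0.0026). CHI, the next enzyme, had an interaction of 1.34 ± 0.17 (adjusted p = 0.0028). The count of 6 was 2 without WT replicate 2, tcx5/6 replicate 1, ddm1 replicate 1 or tcx5/6 ddm1 replicate 1, and 3 without tcx5/6 replicate 2.

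Among the less than additive genes that fell in the WT background, QQS, MRU1 and ESM1 were lowest in tcx5/6. They were also lower in WT than in ddm1 or tcx5/6 ddm1. QQS (AT3G30720), an orphan gene that affects starch content and is silenced by methylation in some accessions, was listed at 0 in both tcx5/6 libraries. It read 1021 and 1031 in WT, 1826 and 1851 with ddm1, and 2246 and 1991 with tcx5/6 ddm1. The triple mutant libraries lay above those of ddm1 and WT, but the difference of 0.20 from ddm1 was not called. The interaction at QQS was 10.2 (limma adjusted p = 1.8e-07). QQS was also listed at 0 in the tcx5/6 leaf and SAM libraries. MRU1 (AT5G35490), in the same list of methylation-silenced genes, read 229 and 199.7 in the WT pair, 1.41 and 1.55 with tcx5/6, 5395 and 5416 with ddm1, and 4261 and 3266 with tcx5/6 ddm1. It was near 0 in tcx5/6 and high in both ddm1 groups (interaction 5.90 ± 0.22, adjusted p = 2.9e-05), and an additive outcome would have put tcx5/6 ddm1 at 61.4. SDC (AT2G17690), an F-box gene silenced by methylation, read 4.65 and 3.33 in WT, 0 with tcx5/6, 4262 and 6166 with ddm1, and 134 and 242 with tcx5/6 ddm1. With values of 0 in 1 group its interaction depended on the pseudocount, at -2.52 (adjusted p = 0.019) with 1 and 0.50 (adjusted p = 0.64) with 0.1. The call was also lost without WT replicate 2 (adjusted p = 0.070), tcx5/6 replicate 1 or 2 (0.054 and 0.059) or ddm1 replicate 2 (0.063). FWA, the 1 remaining gene of that list, was listed at 0 in WT and tcx5/6 and read 148 and 252 with ddm1 and 19.2 and 369 in tcx5/6 ddm1 (adjusted p = 0.67).

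ESM1 (AT3G14210), which steers glucosinolate breakdown towards isothiocyanates, read 20507 and 20102 in the WT pair, 1064 and 1076 with tcx5/6, 115381 and 104038 with ddm1, and 104654 and 77820.3 with tcx5/6 ddm1. The tcx5/6 libraries were the lowest, and the ddm1 and tcx5/6 ddm1 libraries overlapped above WT (interaction 3.96 ± 0.18, adjusted p = 5.6e-05). ESP, which directs breakdown towards nitriles, had an interaction of 1.46 ± 0.22 (adjusted p = 0.0052). Of 13 glucosinolate synthesis genes 1 had a positive and 4 a negative interaction, where 5% and 9.51% of all genes did. Among the 4 was MYB51 (-1.33 ± 0.31, adjusted p = 0.027). Without any 1 WT or tcx5/6 library none of the 5 was called, and without ddm1 replicate 2 the count was 1. Without ddm1 replicate 1 the positive call was lost, and without tcx5/6 ddm1 replicate 1 the negative count was 2. SAE1B (AT5G50580), a subunit of the SUMO-activating enzyme, read 1029 and 732 in the WT pair, 18.4 and 26.7 with tcx5/6, 27.8 and 44.3 with ddm1, and 18 and 28.7 with tcx5/6 ddm1. It was high in WT alone, and the other 6 libraries lay between 18 and 44.3 (interaction 4.64 ± 0.52, adjusted p = 0.0016). WAKL10, a wall-associated kinase-like gene, was lower in tcx5/6 than in WT, by 2.01, and not in the ddm1 background (interaction 2.60 ± 0.44, adjusted p = 0.0082). CYP71A13, an enzyme of camalexin synthesis, had the same pattern (3.09 ± 0.65, adjusted p = 0.019) and was not called without WT replicate 2 or tcx5/6 replicate 2 (adjusted p = 0.078 and 0.076).

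Among less than additive genes that were higher in tcx5/6 than in WT, FHL (AT5G02200), which carries phytochrome A into the nucleus, read 88.6 and 68.7 in the WT pair, 246 and 279 with tcx5/6, 251 and 176 with ddm1, and 144 and 159 with tcx5/6 ddm1. Its tcx5/6 libraries stood above WT, whereas in the ddm1 background the difference was -0.47 and not called (interaction -2.20 ± 0.32, adjusted p = 0.0044). LpxC1, of the plant lipid A pathway, RTFL21, a gene of the ROTUNDIFOLIA-like small peptide family, and MEE3, a RADIALIS-like MYB gene, had interactions of -5.03 ± 0.95, -4.07 ± 1.06 and -4.00 ± 0.80. LpxC1 (adjusted p = 0.012) lost its call without any 1 WT or tcx5/6 library (adjusted p = 0.051 to 0.055), and MEE3 (adjusted p = 0.016) without WT replicate 1 or 2 or tcx5/6 replicate 1 (0.054 to 0.067). RTFL21 (adjusted p = 0.038) lost it without any 1 library of tcx5/6, ddm1 or tcx5/6 ddm1 (0.075 to 0.12) or with a pseudocount of 0.1 (0.11). LpxC1, SAE1B, KIN2, VIM2 and the histone H3.1 genes have close copies, and reads of one copy may be counted for another.

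**Figure D4:**
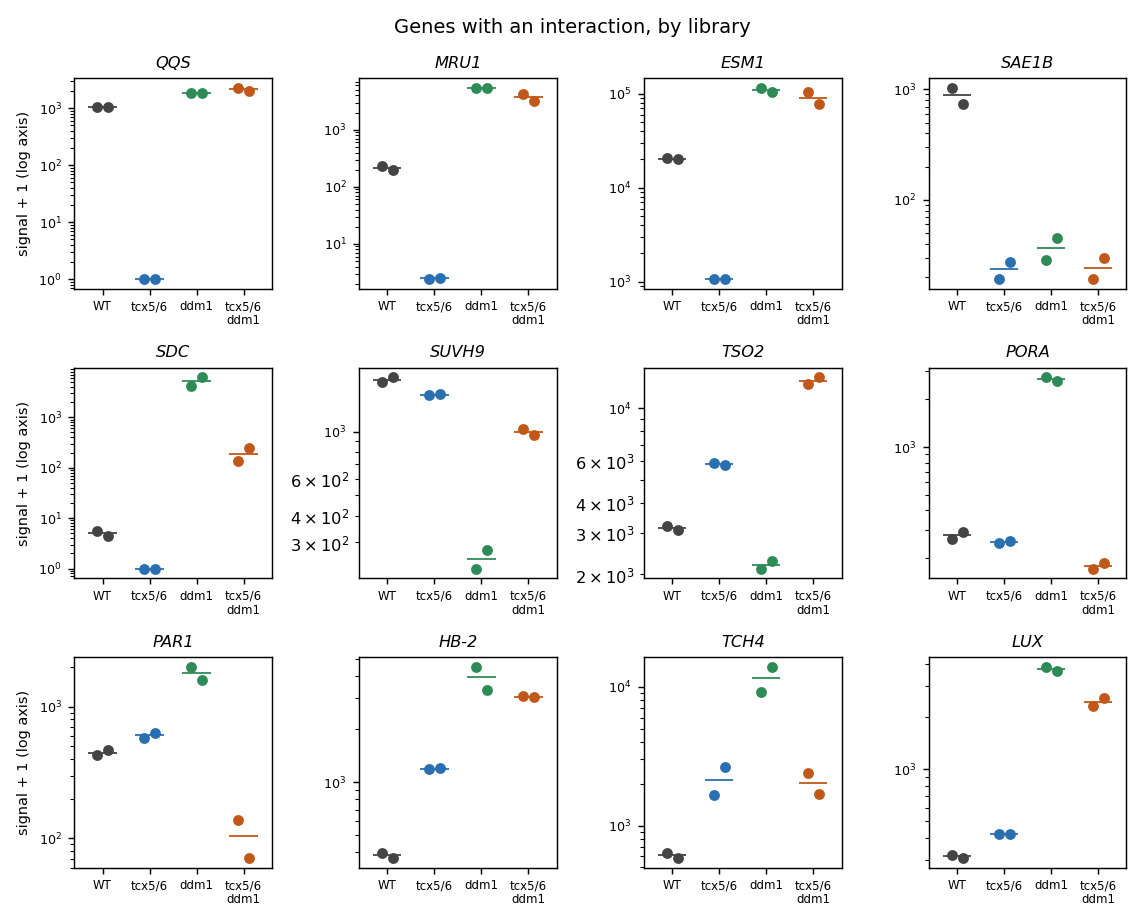
Each panel is a gene, with signal + 1 on a log y axis and the 4 groups on the x axis; points are the 2 libraries of a group and lines their mean. QQS, MRU1 and ESM1 are lowest in tcx5/6, PORA and SDC are highest in ddm1, and TSO2 is highest in tcx5/6 ddm1.

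The sorted genes were then read in leaf and shoot apical meristem (SAM) libraries of WT and tcx5/6 plants, none of which entered the sorting. Leaves came from plants aged 1 month, and both tissues had 2 libraries per genotype. Of 24429 genes tested there, 21.3% were higher and 21.4% lower in tcx5/6 leaf, and 15.6% higher and 14.5% lower in tcx5/6 SAM. Among the 23277 genes tested in both tables these shares were 22.2%, 22.3%, 16.3% and 13.8%. Of more than additive genes that were higher in the ddm1 background, 41.9% were higher and 18.1% lower in tcx5/6 leaf. Of those that were lower in the ddm1 background, 15.5% were higher and 35.3% lower in leaf. The less than additive genes that fell in the WT background were lower in 46.2% of cases in leaf and 48.5% in SAM, and higher in 12.3% and 3.51%. Those that rose were higher in 39.0% and 46.5%.

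Of the 70 reversed genes that were lower in tcx5/6 seedlings of the WT background, 55.7% were lower and 2.86% higher in tcx5/6 SAM, while in leaf 27.1% were lower and 34.3% higher. BHLH100 and BHLH39 were lower in tcx5/6 SAM, with differences of -5.38 and -4.10 (adjusted p = 0.0011 and 0.00013), and had leaf differences of -0.16 and -0.44 that were not called (adjusted p = 0.94 and 0.31). ESM1 was lower in both (-6.84 in leaf and -2.75 in SAM), and TCH4 and BT5 higher in both (1.49 and 1.96 in leaf, 1.52 and 1.13 in SAM). Whether the difference between leaf and SAM at these genes exceeds its error was not tested. The labels' tissue field reads seedlings for these libraries, so tissue was taken from the titles.

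**Figure D5:**
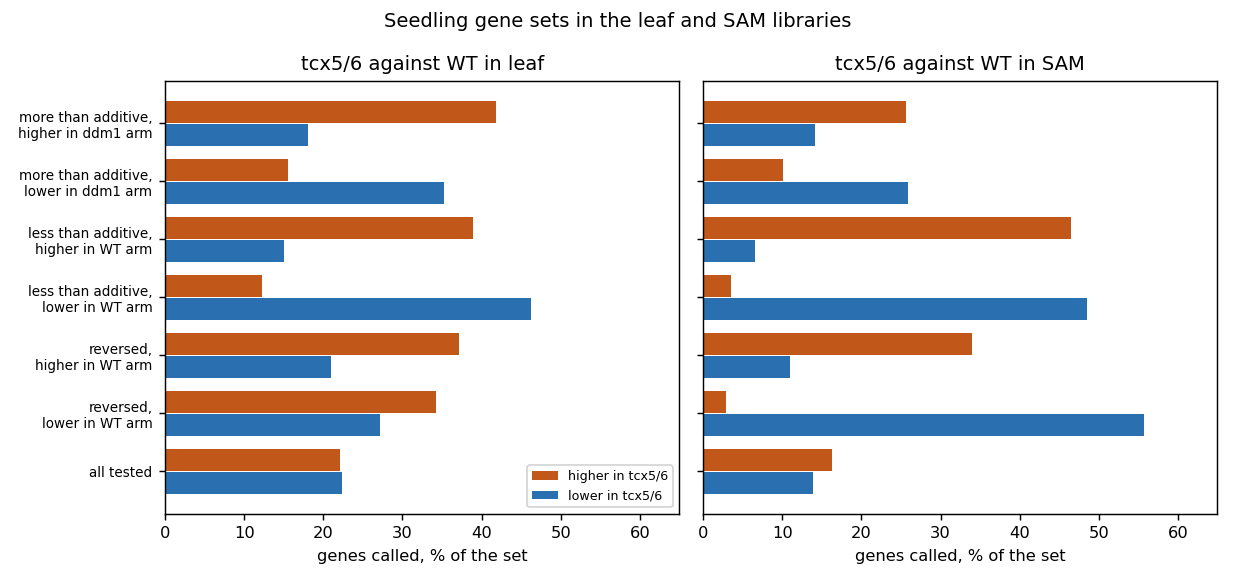
Bars give the percentage of each seedling gene set called higher (orange) or lower (blue) in tcx5/6 than in WT, in leaf at the left and SAM at the right, with all genes tested in both tables at the bottom; WT arm and ddm1 arm stand for the 2 backgrounds. The 70 reversed genes that were lower in the WT background are lower in 55.7% of cases in SAM and 27.1% in leaf.

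Markers of tissues that could differ in share between the groups are set against the 14.5% of all genes called. Of 12 shoot meristem markers 11 were tested and 1 was called, CLV1, a receptor kinase that limits stem cells (-0.95 ± 0.10, adjusted p = 0.0015). Their summed signal was 3947 to 4226 in WT, tcx5/6 and ddm1 libraries and lower, at 2236 and 2307, in tcx5/6 ddm1. None of 10 floral organ markers was called by limma (3 at an unadjusted p under 0.05), and SEP3 came nearest (-0.61 ± 0.21, adjusted p = 0.090). Of 5 pollen and tapetum markers 3 were tested and 2 were at 0 in all 8 libraries, and none was called (1 at an unadjusted p under 0.05), while AMS was with a pseudocount of 0.1 (adjusted p = 0.030). Of 9 root markers 3 were called. EXPA7, an expansin of root hairs, read 131 and 102 in the WT pair, 127 and 121 with tcx5/6, 331 and 327 with ddm1, and 80.8 and 90 with tcx5/6 ddm1, highest in ddm1 and lowest in tcx5/6 ddm1 (-2.04 ± 0.27, adjusted p = 0.0031). COBL9, another root hair gene, was also called (-2.28 ± 0.53), but not without WT replicate 2 (adjusted p = 0.098), tcx5/6 replicate 1 or 2 (0.088 and 0.092) or ddm1 replicate 2 (0.072), and the third called root marker was IRT1. Summed root marker signal was 1825 to 2597 in the 8 libraries. The part of tissue shares in the interactions was not tested.

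Of 7 flowering time genes only SVP, a floral repressor, was called (-0.69 ± 0.11, adjusted p = 0.0074), and FLC, another repressor, was called as well with a pseudocount of 10 (1.13, adjusted p = 0.021) and SOC1, a promoter of flowering, with a filter value of 20 (-0.53, adjusted p = 0.042). Of 9 heat shock genes none was (1 at an unadjusted p under 0.05), with HSP18.2 nearest (1.01 ± 0.43, adjusted p = 0.16). Among 104 genes annotated as related to transposons 83 were tested and 17 were at 0 in all 8 seedling libraries. The interaction was positive in 2, DDM1 and CMT3, and negative in 3, a share of 5 in 83 where 14.5% of all genes were called. The list took any gene whose annotation mentions transposons, so it also held genes such as CMT3 and the mutated DDM1. The part of low signal in this share was not tested. AT4G28870 was listed at 0 in WT, tcx5/6 and tcx5/6 ddm1 and read 82.9 and 82.5 in ddm1 (adjusted p = 0.0015). AT2G41590 read 2.38 and 3.08 in the WT pair, 2.88 and 4.43 with tcx5/6, 316 and 268 with ddm1, and 27.2 and 40.8 with tcx5/6 ddm1, high in ddm1 and much lower in the triple mutant (interaction -3.40 ± 0.57, adjusted p = 0.0077). FRS3, a transcription factor gene of the FAR1-related family, was the last (-0.51 ± 0.14, adjusted p = 0.040), lost without any 1 library other than tcx5/6 ddm1 replicate 2 (adjusted p up to 0.15) and after median of ratios rescaling (0.053). With a pseudocount of 10 in place of 1, 9 of the 83 were negative. The positive count of 2 was 0 without any 1 WT or tcx5/6 library and 1 without ddm1 replicate 2 or tcx5/6 ddm1 replicate 2, and the negative count of 3 was 1 without ddm1 replicate 2 and 6 without tcx5/6 ddm1 replicate 2.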

How the data were processed

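The authors' deposited values are signal, read counts per gene adjusted to a common library size. HISAT2, edgeR and TAIR10 are named in the submitters' processing notes, with versions, counting tool, annotation and use of strand not given in the sources used here. The deposited signal is not in whole reads, so limma was used, and the count test foreseen for raw counts was not run. Values below 1e-6 were read as 0. Seedling values were taken as log2(signal + 1), filtered at 1 in at least 2 libraries, and fitted with limma 3.58.1 (trend) in R 4.3.3 with 1 coefficient per group over the 8 libraries. Leaf and SAM were fitted in their own table. Calls used Benjamini-Hochberg adjusted p under 0.05. Errors are standard errors of the limma fit with 2 libraries per group. Its spread for each gene is shared by all 8 libraries and moderated across genes. The code was tested on simulated data in which each gene had the same spread in every group. That test does not cover groups of unequal spread. Reads that overlapping, antisense or near-identical genes share cannot be assigned here. Tables were written with Python 3.11.15 and pandas 2.3.3, and figures with matplotlib 3.10.9.

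The gene sets and lists were chosen with earlier results of these data known. Named were, per class and direction, up to 6 genes with the largest absolute interaction that had a symbol, a mean of at least 100 in 1 group and 1 sign in all 16 combinations of 1 library per group, and, per list, up to 3 called genes with the smallest p. Other genes named from the lists were chosen after their values were seen. List members without an annotated name, 6 in all, were left out. The 285 organelle genes were at 0 throughout. Alternatives were other pseudocounts, filters, scaling, a minimum fold, a replicate block and leaving out each library.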

Additional observations from a re-analysis of the deposited data

Results flagged for a closer look

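The results below stood out because the tcx5/6 difference was tested to differ between the WT and ddm1 backgrounds. That held for 3632 genes. Of the 265 reversed genes, 149 met the rule for naming. The 6 of largest interaction among those were BHLH100 (6.35), BHLH38 (5.70), BHLH39 (5.54), MIR399d (-5.12), TCH4 (-4.26) and BT5 (-3.93). Each had called tcx5/6 differences of opposite sign in the 2 backgrounds. The 3 positive ones are transcription factor genes of the iron response. For MIR399d, low in WT, the sorting as reversed did not hold with a pseudocount of 0.1 or 10 or a replicate block. MIR399d lost its call without tcx5/6 replicate 1, while the others kept theirs in all 14 alternatives.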

How the results depend on the processing

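Of 88 named genes with a called interaction, 50 kept the call in all 14 alternatives, and 30 to 31 lost it without a WT or tcx5/6 library against 10 to 13 without a ddm1 or tcx5/6 ddm1 library. Only SDC changed direction, to 0.50 with a pseudocount of 0.1. The named genes were picked for a large interaction or a small p, so these shares do not stand for all called genes. Leaving out 1 library gave 1280 to 4121 interactions (351 to 1427 with the interaction higher and 929 to 2709 with the interaction lower), 1049 to 3348 more than additive, 154 to 430 less than additive and 77 to 350 reversed. The tcx5/6 difference in WT background was then called in 988 to 3910 genes, and the tcx5/6 difference in ddm1 background in 7793 to 9083. A minimum absolute log2 difference of 1 left 1658 interactions, 500 positive and 1158 negative, 1289 more than additive and 166 less than additive, and 61 reversed genes had both differences that large. That minimum left 943 tcx5/6 calls in the WT background and 3513 in the ddm1 background, since it only removes calls. Rescaling by the median of ratios made 40.6% of calls positive against 34.5%.

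With a replicate block the counts were 3439 interactions (interaction higher 1168, interaction lower 2271), 2788 more than additive, 377 less than additive and 274 reversed. The block gave 2810 calls for the tcx5/6 difference in WT background and 9716 for the tcx5/6 difference in ddm1 background. It shared 3216 calls with the fit without the block. Among named genes the block ended the calls of IRT1 (adjusted p = 0.065), PDF1.2 (0.060), MSH4 (0.050) and SYN1 (0.054), and among list members described by other values that of MCM2 (0.051). Same-numbered replicates did not deviate together (r between -0.02 and 0.02), so the numbers do not pair the libraries. For the other results whose call or count changed, the cause was not tested. With 2 libraries per group, and values already adjusted by the authors, low genes could not be given a counting error.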
